A study of Mus musculus with 6 samples.

Results

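RNA of mouse hearts was compared between the group given Rh2 and Dox, called Rh2-30 mg/kg + Dox, and the Rh2-30 mg/kg group, which asks what doxorubicin (Dox) did in hearts that also received the high dose of Rh2. The pair was chosen by its treatment labels, and makes up 2 of the 6 libraries of the series. Both groups were BALB/c nude mice (CAnN.Cg-Foxn1nu/Crl), female and 6 weeks old, that carried subcutaneous MDA-MB-231 human breast tumours and received Rh2 at 30 mg/kg every day for 3 weeks in PBS with Tween 80, from day 7 after the tumour cells were given. The Rh2-30 mg/kg + Dox mice also received Dox at 2 mg/kg in saline every other day, to a cumulative dose of 22 mg/kg. The other 4 groups were Control and Dox, both without Rh2, and Rh2-20 mg/kg and Rh2-20 mg/kg + Dox, all in the same mice with the same tumour. Nude mice lack a thymus and most T cells, so T cell genes are read in a host with few such cells.

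RNA of 5 hearts was pooled for a library, and there was 1 library for each condition. A difference within the pair therefore has no replicate check, and no p-value is given for it. The intervals printed beside log2 ratios are 95% exact binomial intervals on the 2 counts, and cover counting error only. Libraries held 86164411 to 90621002 counts, and the 18328 of 45777 genes that averaged 10 counts or more across all 6 were compared. Log2 ratios are Dox library over Dox-free library after TMM scaling, on counts with 0.5 added. Where a library had 0 counts, 3 counts were put in its place and the fold is written as a lower bound.

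Dox is an anthracycline that poisons topoisomerase II, which leaves double-strand breaks in DNA, and it is known for its toxicity to the heart. Ginsenoside Rh2 is a saponin of ginseng. In the adult heart ventricular and atrial myocytes use different light chains and peptide hormones, and fat, valves, nerves and great vessels lie at the base of the organ beside the atria, so that RNA of a whole heart depends on the parts that are taken along. Most myocytes of an adult heart no longer divide, and transcripts of mitosis there come largely from other cell types.

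In Rh2-30 mg/kg + Dox, 440 of the 18328 genes were at least 2-fold higher than in Rh2-30 mg/kg (2.40%) and 2216 were at least 2-fold lower (12.1%). The median log2 ratio over all genes was -0.03, and the middle 50% of genes lay between -0.45 and 0.23. The pair was more distant than the other pairs that differ by Dox, with which it shares no library. With Dox at Rh2 20 mg/kg, 750 genes were at least 2-fold higher (4.09%) and 526 at least 2-fold lower (2.87%), and with Dox and no Rh2 996 were higher (5.43%) and 656 lower (3.58%). The SD of the log2 ratios over genes was 1.22 in the Rh2-30 mg/kg pair, 0.82 in the Rh2-20 mg/kg pair and 0.92 between Dox and Control.

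Of the 2216 lower genes, 1632 (73.6%) had their highest level of all 6 libraries in Rh2-30 mg/kg, 1548 (69.9%) had their lowest level in Rh2-30 mg/kg + Dox, and 1068 (48.2%) had both. The choice of genes that were lower in the pair favours such counts, so they are a description only. Among the 13283 genes whose level in Rh2-30 mg/kg lay within 1.5-fold of that in both Control and Rh2-20 mg/kg, 477 were at least 2-fold lower (3.59%) and 105 at least 2-fold higher (0.790%). This restriction was added after the values were seen, and by its construction it removes genes that were high or low in Rh2-30 mg/kg. Over all 18328 genes, 4783 were highest of the 6 libraries in Rh2-30 mg/kg, 4400 were lowest in Rh2-30 mg/kg + Dox and 1836 (10.0%) were both. In Rh2-30 mg/kg + Dox 3696 were highest. These values are the background for such counts above and in the lists.

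Genes of atrial myocytes were the first group with large differences. Myl7, the atrial regulatory light chain, had 56, 1187 and 52896 counts without Dox at Rh2 0, 20 and 30 mg/kg, and 9134, 10613 and 19 counts with Dox at these doses. Rh2-30 mg/kg was the highest and Rh2-30 mg/kg + Dox the lowest of the 6, and their log2 ratio was -11.28 (-12.05 to -10.67). Sln, which encodes the calcium pump inhibitor sarcolipin, had 14, 326 and 15768 counts without Dox and 1828, 4393 and 0 with it, and was at least 4817-fold lower in Rh2-30 mg/kg + Dox than in Rh2-30 mg/kg. The atrial light chain Myl4 went from 32604 to 106 counts across the pair, the myosin binding protein Mybphl from 8991 to 21, and the growth factor Bmp10 from 534 to 6. The secreted protein Dkk3 (5499 to 271 counts) and the peptide hormone amidating enzyme Pam (153449 to 54802 counts) were lower as well. Bmp10 had 7644 counts in Rh2-20 mg/kg + Dox, 217 in Dox and 4 or fewer in Control and Rh2-20 mg/kg. Nppa, the atrial natriuretic peptide that stressed ventricles also make, had 3607, 3252 and 56331 counts without Dox and 16217, 16608 and 6416 with it. Its log2 ratio was -3.01 (-3.05 to -2.97), and Rh2-30 mg/kg + Dox was above Control and Rh2-20 mg/kg but below both other Dox libraries.

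Of 21 atrial genes, all of which passed the filter, 17 were at least 2-fold lower, none was 2-fold higher, and the median log2 ratio was -2.72 beside -0.03 over all genes. The same list had a median of 1.02 in the Rh2-20 mg/kg pair and 1.48 between Dox and Control. Its summed level in CPM, which are counts scaled to a common library size, was 4245 in Rh2-30 mg/kg against 1010 and 1034 in the other Dox-free libraries, and 1050 in Rh2-30 mg/kg + Dox against 1471 and 1791 in the other Dox libraries. By the ratio of an atrial to a ventricular light chain, there were 623 Myl7 counts for every 1000 of Myl2 in Rh2-30 mg/kg, where Control had 0.464 and Rh2-20 mg/kg 10.5. With Dox there were 0.147 at Rh2 30 mg/kg, 77.1 without Rh2 and 95 at Rh2 20 mg/kg. The ratio differed more than 10-fold between any 2 of the Dox-free libraries, and among the Dox libraries Rh2-30 mg/kg + Dox alone was low. In pooled tissue, fewer cells of a type and less RNA per cell cannot be told apart, and with 1 pool a side neither can the tissue taken and the treatment.

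Genes of fat cells were likewise highest in Rh2-30 mg/kg. Adipoq, which encodes the fat cell hormone adiponectin, had 56, 330 and 3716 counts without Dox at Rh2 0, 20 and 30 mg/kg, and 650, 317 and 8 with it. The complement protease Cfd (adipsin) went from 13390 to 20 counts across the pair, the carbonic anhydrase Car3 from 13564 to 12, the lipid droplet protein Plin1 from 1217 to 2 and the hormone Retn (resistin) from 564 to 0. Fasn, the fatty acid synthase, had 66132 counts in Rh2-30 mg/kg and 2884 to 8069 in the other 5 libraries, and Scd1, the stearoyl-CoA desaturase, had 40447 and 1530 to 6023. In both, Rh2-30 mg/kg was the library that stood out, and Rh2-30 mg/kg + Dox was within or just below the range of the rest. The liver and fat enzymes Cyp2e1 (11659 to 57 counts) and Pck1 (6800 to 9 counts) were lower in the same way.

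Of 33 white fat genes that passed the filter, out of 34, 24 were at least 2-fold lower and none was 2-fold higher (median log2 ratio -2.24, beside -0.03 and 0.53 in the Rh2-20 mg/kg pair and between Dox and Control). Members that heart muscle or its capillaries also express went another way. The lipoprotein lipase Lpl was higher in Rh2-30 mg/kg + Dox (105917 to 144718 counts, log2 ratio 0.58), and the fatty acid binding protein Fabp4 was nearly level (73735 to 64083 counts, -0.08). The summed level of the list, which these abundant genes dominate, was 5691 CPM in Rh2-30 mg/kg, 4592 with Dox at this dose and 3835 to 4008 in the others. Lep was at 0 counts in both libraries of the pair. Brown fat was seen in Rh2-30 mg/kg by its defining gene Ucp1, the uncoupling protein of heat production, with 6442 counts against 0 to 12 in the other 5 libraries. Elovl3 had 453 counts there and 0 to 3 in the others, and the transporter Slc27a2 had 1105 against 0 to 14. Of 18 brown fat genes that passed, 7 were at least 2-fold lower and the median log2 ratio was -0.07. Cox8b, a member of the list that is also a gene of heart mitochondria, had 10863 and 15727 counts (0.66).

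**Figure D1:**
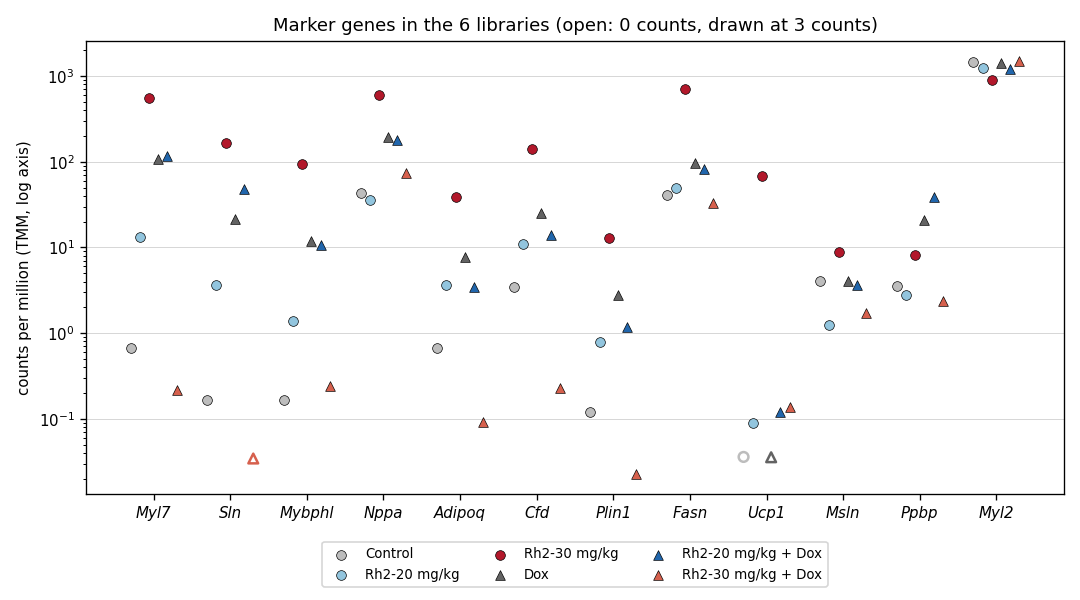
CPM (log axis) of 12 marker genes in the 6 libraries, with circles for Dox-free and triangles for Dox libraries; open symbols mark 0 counts and are drawn at the level of 3 counts. For the atrial genes Myl7, Sln and Mybphl and the fat genes Adipoq, Cfd and Plin1, Rh2-30 mg/kg was the highest library, and Rh2-30 mg/kg + Dox was the lowest for all of them but Mybphl, which was lower still in Control, while Myl2 differed by less than 2-fold.

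Markers of further tissues had fewer counts and differed in direction. Of 15 genes of mesothelium and epicardium, 13 were at least 2-fold lower (median -2.36), among them Msln (843 to 150 counts). Of 14 genes of Schwann cells and neurons that passed, 9 were at least 2-fold lower (median -2.26), and the synaptic gene Snap25 had 283 counts in Rh2-30 mg/kg and 0 in the other 5 libraries. Epidermis genes as a list were near level, with a median of -0.13, and the keratin Krt5, with 68 counts in Rh2-30 mg/kg and 0 in the others, was the only 1 of 6 that was at least 2-fold lower. The airway secretoglobin Scgb1a1 had 730 counts in Rh2-30 mg/kg, 16 with Dox at this dose and 9 to 98 elsewhere, while the lung gene Sftpc was at 0 in all 6 libraries. Skeletal muscle did not follow: its defining genes Myh4 (6 and 5 counts) and Pvalb (21 and 20 counts) were near 0 on both sides, and Acta1 was level (28159 and 27443 counts, 0.09). Of its 22 genes, 5 were at least 2-fold lower and 4 at least 2-fold higher, beside 12.1% and 2.40% over all genes. The liver gene Alb had 4 and 14 counts.

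Among the other genes with the lowest ratios were Hamp, which encodes the iron hormone hepcidin (1388 to 7 counts, log2 ratio -7.41), the metalloproteinase Adamts8 (3896 to 26, -7.07), the transglutaminase Tgm3 (1298 to 10, -6.82), the carboxylesterase Ces1f (1182 to 0, at least 361-fold) and the F-box gene Fbxw24 (1017 to 0, at least 311-fold). Each was highest in Rh2-30 mg/kg and lowest in Rh2-30 mg/kg + Dox of the 6 libraries. In all, 80 genes had 0 counts in Rh2-30 mg/kg + Dox and at least 100 in Rh2-30 mg/kg, and 9 genes had the reverse. None of Hamp, Adamts8, Tgm3, Ces1f and Fbxw24 was in a list of tissue markers, and the part of atrial and fat tissue in their values was not tested.

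Against these, genes of ventricular myocytes were higher in Rh2-30 mg/kg + Dox. Of 12 such genes, 5 were at least 2-fold higher and none 2-fold lower (median log2 ratio 0.86). The ventricular light chain Myl2 had 120804, 112970 and 84963 counts without Dox at Rh2 0, 20 and 30 mg/kg, and 118454, 111771 and 129279 with it, so that Rh2-30 mg/kg was the lowest and Rh2-30 mg/kg + Dox the highest library (log2 ratio 0.73). Irx4, a transcription factor of the ventricle, had 853 counts in Rh2-30 mg/kg and 1443 to 2001 in the other 5, with 1912 in Rh2-30 mg/kg + Dox (1.29).

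Sarcomere genes as a whole were higher by less. The median log2 ratio of 28 ventricular sarcomere genes was 0.52, beside -0.05 in the Rh2-20 mg/kg pair and -0.04 between Dox and Control, and 23 of the 28 had their highest level of the 6 libraries in Rh2-30 mg/kg + Dox. Mybpc3, the cardiac myosin binding protein, went from 109670 to 198772 counts (0.98), the light chain Myl3 from 35562 to 65343 (1.0), the troponin Tnnt2 from 108869 to 158804 (0.67), the heavy chain Myh6 from 1021390 to 1348308 (0.53) and titin (Ttn) from 6290140 to 7745886 (0.43). Within the genes whose level in Rh2-30 mg/kg lay near that in Control and Rh2-20 mg/kg, 23 of the 28 remained, with a median of 0.52. The summed level of the ventricular myocyte genes was 12769 CPM in Rh2-30 mg/kg, 18837 with Dox at this dose and 15048 to 16569 in the other 4, while that of the atrial genes was highest in Rh2-30 mg/kg, and the part of atrial tissue in the muscle and metabolic results was not tested.

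Genes of energy metabolism were higher by a like amount. All 46 nuclear genes of the respiratory chain had their highest level of the 6 libraries in Rh2-30 mg/kg + Dox, and their median log2 ratio was 0.55, beside -0.11 in the Rh2-20 mg/kg pair and -0.07 between Dox and Control. The ATP synthase subunit Atp5a1 had 106419, 126121 and 105151 counts without Dox at Rh2 0, 20 and 30 mg/kg, and 92603, 109696 and 143402 with it. It was lower with Dox in both other pairs and higher with Dox in this one (0.57). The 34 genes of glucose use and the TCA cycle had a median of 0.51, with Idh2, the mitochondrial isocitrate dehydrogenase, at 33600 and 61664 counts (1.0) and Gapdh at 218806 and 286573 (0.52). The 34 genes of fatty acid oxidation had a median of 0.43, beside -0.31 and -0.30 in the other pairs, and Acadm, the medium-chain acyl-CoA dehydrogenase, went from 41216 to 62133 counts (0.72).

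A few targets of the fatty acid receptors PPAR were lower with Dox in all 3 pairs, unlike their list in this pair. Ucp3, a mitochondrial uncoupling protein of muscle, was lower with Dox in each pair, by a log2 ratio of -1.19 here and of -1.78 and -2.01 at Rh2 20 mg/kg and without Rh2. For Pdk4, the kinase that turns off pyruvate dehydrogenase, the 3 ratios were -0.85, -1.22 and -1.34, and for the lipase inhibitor Angptl4 they were -2.65, -0.96 and -1.10.

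Genes of cell division were lower with Dox at every Rh2 dose. Of the 53 genes of the G2/M phase that passed the filter, out of 54, 50 were at least 2-fold lower in Rh2-30 mg/kg + Dox than in Rh2-30 mg/kg and all 53 had a ratio below 1, with a median log2 ratio of -2.60. The medians were -1.50 at Rh2 20 mg/kg, with 37 genes at least 2-fold lower (background 2.87%), and -0.92 without Rh2, with 25 genes at least 2-fold lower (background 3.58%). Transcripts of this phase are switched on by the MuvB complex with B-Myb and FOXM1 and by NF-Y, through the cell cycle genes homology region (CHR) and CCAAT boxes of their promoters. Promoters from RefSeq (GRCm38.p6) were found for 44 of the 53 genes and for 12612 of all genes compared. In the 250 bases before the start, on either strand, the CHR letters TTTGAA stood in 17 of the 44 (38.6%) and in 13.7% of all 12612, and CCAAT stood in 34 (77.3%) and in 40.2%. Both stood in 14 (31.8%) and in 5.30%. A gene with several annotated starts was counted if any of its windows held the letters, so the shares are of genes, not of windows. The number of starts was not compared between the sets. A match of letters is a description of the window, not a measured binding site.

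The 3 promoters shown are those of the G2/M genes with the lowest ratios among genes with at least 100 counts in Rh2-30 mg/kg and a CHR match. For each gene the first annotated start whose window held a CHR was taken, so the presence of a CHR was fixed by this choice. Other starts of these genes are not shown. Each is the 250 bases before that start, 5′ to 3′ on the strand of the gene. Capitals mark the CHR (TTTGAA or its reverse complement TTCAAA) and CCAAT (or its reverse complement ATTGG) letters. They lie at chr4:117178773-117179022 (Kif2c), chr11:99024190-99024439 (Top2a) and chr7:135716380-135716629 (Mki67), all on the minus strand of GRCm38.p6.
Kif2c: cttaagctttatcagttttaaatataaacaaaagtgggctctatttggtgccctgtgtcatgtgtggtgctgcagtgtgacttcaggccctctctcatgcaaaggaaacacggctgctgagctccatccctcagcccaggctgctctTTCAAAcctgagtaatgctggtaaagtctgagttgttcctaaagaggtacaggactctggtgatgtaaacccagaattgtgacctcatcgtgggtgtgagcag
Top2a: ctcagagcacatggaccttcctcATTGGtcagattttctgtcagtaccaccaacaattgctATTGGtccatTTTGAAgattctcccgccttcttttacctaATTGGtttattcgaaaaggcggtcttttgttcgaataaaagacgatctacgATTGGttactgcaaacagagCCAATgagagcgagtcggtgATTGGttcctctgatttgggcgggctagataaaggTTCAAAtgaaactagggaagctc
Mki67: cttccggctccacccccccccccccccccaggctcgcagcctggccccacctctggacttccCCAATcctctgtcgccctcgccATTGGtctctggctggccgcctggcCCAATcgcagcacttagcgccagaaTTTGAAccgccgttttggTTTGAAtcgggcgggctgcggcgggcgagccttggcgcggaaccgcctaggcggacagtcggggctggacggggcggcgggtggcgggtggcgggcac
The Kif2c window held 1 CHR match and no CCAAT, that of Top2a 2 CHR and 6 CCAAT matches, and that of Mki67 2 CHR and 3 CCAAT matches.

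Mki67, the proliferation marker Ki-67, had 8783, 10708 and 13001 counts without Dox at Rh2 0, 20 and 30 mg/kg, and 3822, 2664 and 677 with it. The 3 Dox libraries lay below the 3 Dox-free ones without overlap, and the ratio within the pair was -4.14 (-4.25 to -4.03). Top2a, which encodes the topoisomerase that Dox poisons in dividing cells, had 1646, 2238 and 2942 counts without Dox and 794, 596 and 117 with it, in the same order (-4.52). The mitotic kinesin Kif2c had 113, 178 and 221 counts without Dox and 17, 35 and 0 with it, which is at least 67.5-fold lower in this pair. Cdc25c, the phosphatase that starts mitosis, had 47, 88 and 58 counts without Dox and 0 in all 3 Dox libraries. For each of these 4 genes the lowest Dox-free library was above the highest Dox library. The share of all genes with such a separation was not counted, so it is a description of these 4 only. The ratio nearest to 1 in the list was that of the centromere chaperone Hjurp, with 8726 and 6619 counts (-0.27).

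**Figure D2:**
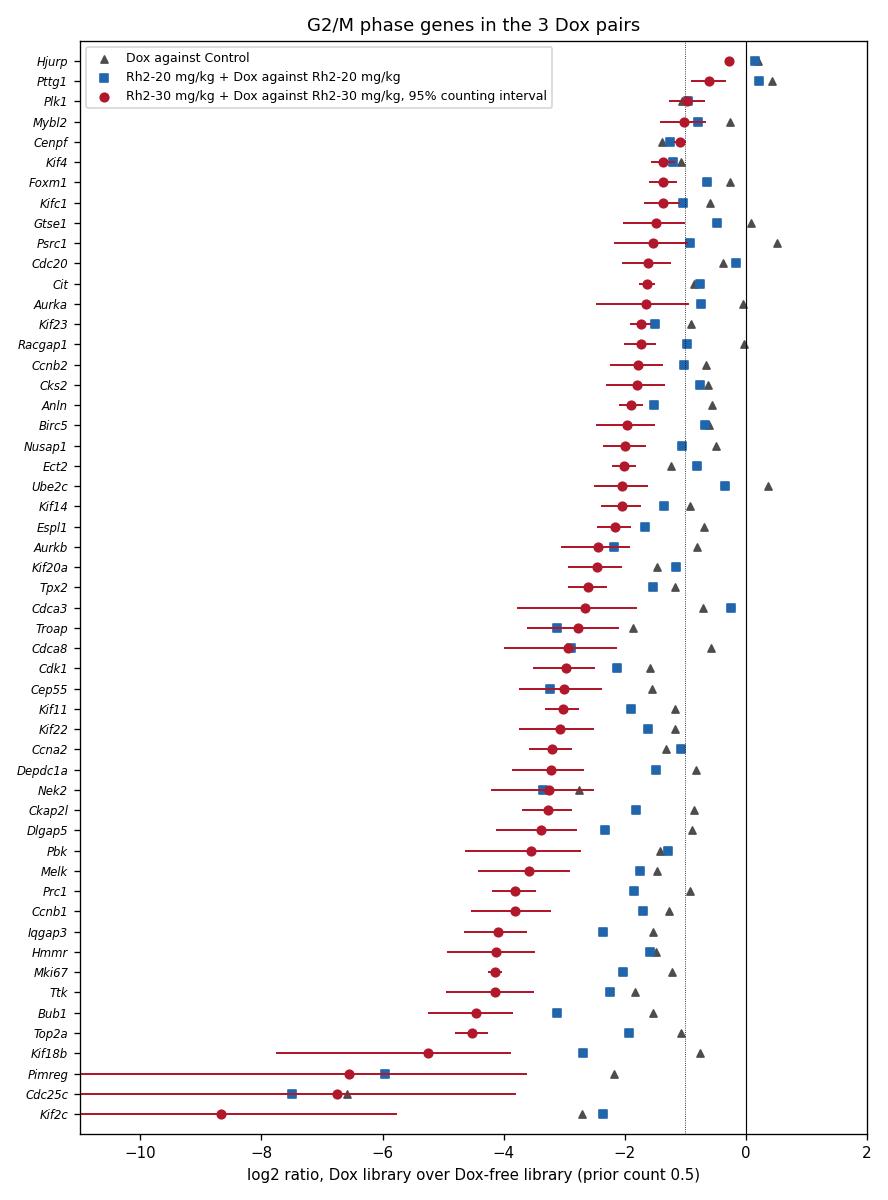
Log2 ratios (Dox library over Dox-free library) of the 53 genes of the G2/M phase in the 3 pairs, with 95% counting intervals for the Rh2-30 mg/kg pair; for genes with 0 counts in Rh2-30 mg/kg + Dox the interval has no lower end and runs off the axis. The dotted line is a 2-fold lower level; 50 of the 53 red points lie beyond it.

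The other cell cycle lists were lower by less, as judged by their medians. The 38 genes of the kinetochore and spindle checkpoint had a median of -0.99, with 19 at least 2-fold lower, among them Bub1b (490 to 25 counts, -4.14). The 24 genes of homologous recombination and Fanconi anaemia repair had a median of -0.81, with 10 at least 2-fold lower, among them Brca1 (780 to 96 counts, -2.89). The 46 genes of DNA replication had a median of -0.37 with 14 at least 2-fold lower, and their most abundant clamp protein, Pcna, was level (5393 and 4787 counts, -0.05). E2f2, an S phase transcription factor that is abundant in red cell precursors, was lower in this pair (228 to 28 counts, -2.88) but higher with Dox in the other pairs (1.17 and 1.45). With only the genes whose level in Rh2-30 mg/kg lay near that in Control and Rh2-20 mg/kg, 35 of the G2/M genes remained, 32 of them were at least 2-fold lower and their median was -2.04. Of the 2216 genes lower here, 91 (4.11%) were at least 2-fold lower in all 3 pairs. Over all genes, 0.878% were at least 2-fold lower in both other pairs. Of the 91, 33 (36.3%) were in a list of the cell cycle, and 23 of these were of the G2/M phase. The cell cycle lists held 53 (G2/M phase), 38 (kinetochore), 46 (replication) and 24 (repair) of the 18328 genes compared.

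Targets of p53, which DNA damage activates, showed no such shift. Of 33 genes 4 were at least 2-fold lower and 1 at least 2-fold higher, beside shares of 12.1% and 2.40% over all genes, and the median was 0.15. Some of the lower genes were also members of the G2/M list. Cdkn1a, which encodes the cell cycle inhibitor p21, had 559 counts without and 753 with Dox (0.56, interval 0.40 to 0.72), and the ratio was 0.63 at Rh2 20 mg/kg and 0.66 without Rh2. Cdkn2a, which encodes p16 and p19Arf, had 19 and 9 counts (-0.91, interval -2.28 to 0.26), so no difference was detectable at this depth.

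Matrix genes of fibroblasts were lower in Rh2-30 mg/kg + Dox. Of 21 collagen genes 13 were at least 2-fold lower and none 2-fold higher, with a median of -1.07 beside -0.09 and -0.07 in the other pairs. Col3a1 had 36000, 39859 and 87731 counts without Dox at Rh2 0, 20 and 30 mg/kg, and 22452, 34068 and 12509 with it. Rh2-30 mg/kg was more than 2-fold above every other library and Rh2-30 mg/kg + Dox was the lowest (-2.68). Col1a1 (27072 to 6043 counts, -2.04), fibronectin (Fn1, 46949 to 12737, -1.76) and periostin (Postn, 17667 to 3514, -2.20) were also highest in Rh2-30 mg/kg and lowest in Rh2-30 mg/kg + Dox. The 29 profibrotic genes that passed had a median of -0.85 with 12 at least 2-fold lower, and the 15 fibroblast genes a median of -1.14 with 8. The small proteoglycan Dcn, a marker of fibroblasts at large, was lower by less (56080 to 41147 counts, -0.32). Under the restriction to genes near Control and Rh2-20 mg/kg, 9 collagen genes remained with a median of -0.83 and 6 fibroblast genes with a median of -0.50. The atrial and fat markers were highest and lowest in the same libraries, and their part in the matrix result was not tested.

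Among the metalloproteinases and their inhibitors, 4 of 24 genes were at least 2-fold lower and 2 at least 2-fold higher, beside shares of 12.1% and 2.40% over all genes. The inhibitor Timp4 had 831, 2129 and 1443 counts without Dox at Rh2 0, 20 and 30 mg/kg and 1554, 2606 and 4904 with it. It was higher with Dox in all 3 pairs (1.89 here, 0.27 and 0.89 elsewhere). The neutrophil collagenase Mmp8 was higher from a low level (51 to 167 counts, 1.83). Timp1, which scar tissue and stressed hearts make, was lower (450 to 120 counts, -1.78).

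Lists of macrophage and chemokine genes were lower in this pair. Of 20 genes of resident macrophages 14 were at least 2-fold lower (median -1.40), of 17 genes of recruited monocytes and macrophages 10 (median -1.12) and of 33 chemokines and receptors 19 (median -1.17). In the other pairs the medians of these 3 lists lay between -0.11 and 0.25. The mannose receptor Mrc1, an abundant marker of resident macrophages, went from 22330 to 11050 counts (-0.89), and Dox without Rh2 had 10433. Fcrls, a receptor of resident macrophages, went from 865 to 118 counts (-2.74). The complement receptor Vsig4 went from 607 to 86 counts (-2.69) but was higher with Dox in the other pairs (76 to 516 counts at Rh2 20 mg/kg and 49 to 267 without Rh2), and the same held for the B cell chemokine Cxcl13 (238 to 22 here, 4 to 160 and 2 to 50 elsewhere).

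The 28 inflammasome and Toll-like receptor genes that passed had a median of -0.92, and 14 were at least 2-fold lower. Tlr2, which senses bacterial lipopeptides, went from 557 to 143 counts (-1.83), and Casp1, the protease that matures interleukin 1, from 1127 to 497 (-1.05), while Il1b itself was higher (100 to 173 counts, 0.91). Of 17 B cell genes 15 were at least 2-fold lower (median -2.83), with the immunoglobulin heavy chain Ighm at 2609 and 541 counts and at 728 to 1017 in the other 4 libraries. The antigen presentation chain Cd74, which macrophages and B cells share, went from 2866 to 754 counts (-1.80). Of 21 neutrophil genes, 9 were at least 2-fold higher and 3 at least 2-fold lower, beside 2.40% and 12.1% over all genes (median 0.52). Several of the higher ones had few counts. The most abundant granule gene of the list, S100a9, had 287 and 411 counts (0.64). Of 15 T and NK cell genes that passed, 6 were at least 2-fold lower and 1 at least 2-fold higher, beside 12.1% and 2.40% over all genes (median -0.52). The 1 higher gene was Cd3e, a chain of the T cell receptor complex, which was higher with Dox in each pair at low counts (38 to 189 counts here, 2.43). Atrial and fat markers were highest in Rh2-30 mg/kg as were 16 of the 20 resident macrophage genes, and their part in the immune results was not tested.

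Platelet and red cell genes had opposite directions in this pair and the other Dox pairs. Tubb1, the tubulin of platelets, had 250, 241 and 809 counts without Dox at Rh2 0, 20 and 30 mg/kg, and 2903, 4625 and 182 with it. With Dox it was higher by a log2 ratio of 4.23 at Rh2 20 mg/kg and 3.52 without Rh2, and lower by -2.02 (-2.27 to -1.79) at Rh2 30 mg/kg. The chemokine Ppbp (764 to 208 counts, -1.75) and the von Willebrand factor receptor chain Gp1ba (429 to 99 counts, -1.98) had the direction of Tubb1 in all 3 pairs. Of 15 platelet genes 12 were at least 2-fold lower here (median -1.25), whereas their medians were 3.74 at Rh2 20 mg/kg and 2.74 without Rh2. Von Willebrand factor (Vwf), which endothelium makes as well, had 51646 and 19250 counts (-1.30).

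Of 18 red cell genes that passed, 10 were at least 2-fold lower (median -1.21), against medians of 0.75 and 0.95 in the other pairs. The haemoglobin gene Hba-a1 had 99346, 77286 and 100982 counts in the Dox-free libraries at Rh2 0, 20 and 30 mg/kg, and 273474, 178496 and 49673 in the Dox libraries. Its near-identical copy Hba-a2 shares reads with it, so the split between the copies is uncertain. None of the 18 red cell genes was highest in Rh2-30 mg/kg, unlike the atrial and fat genes, and 14 were lowest in Rh2-30 mg/kg + Dox. Under the restriction to genes near Control and Rh2-20 mg/kg, 13 red cell genes remained with a median of -0.93.

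**Figure D3:**
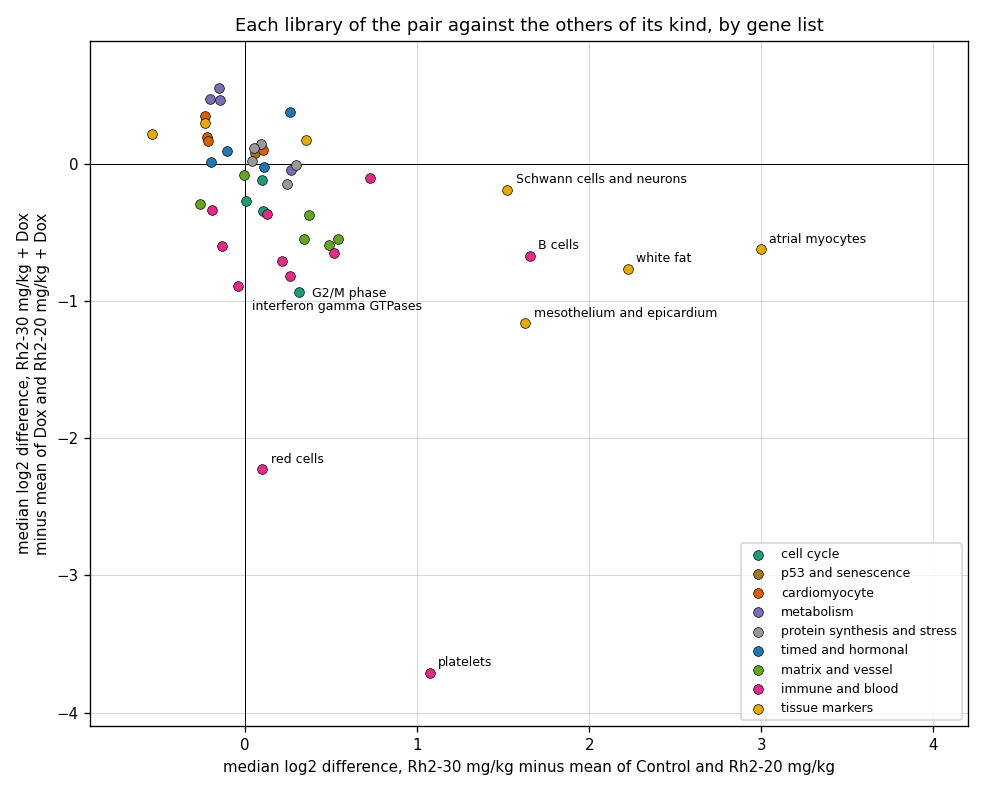
Each point is a gene list with at least 10 members that passed the filter, coloured by family; the horizontal axis is the median log2 difference of Rh2-30 mg/kg from the mean of Control and Rh2-20 mg/kg, the vertical axis that of Rh2-30 mg/kg + Dox from the mean of the other Dox libraries. Atrial genes (3.00 and -0.62) and white fat genes (2.22 and -0.77) lay far to the right, red cell genes (0.10 and -2.23) and platelet genes (1.07 and -3.71) far below, and G2/M genes (0.31 and -0.94) below the middle.

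Interferon genes were low in Rh2-30 mg/kg + Dox rather than high in Rh2-30 mg/kg. Of 36 genes that type I interferon induces, 30 had their lowest level of the 6 libraries in Rh2-30 mg/kg + Dox (4400 of 18328 over all genes). Within the pair, however, 3 were at least 2-fold lower and 3 at least 2-fold higher, beside 12.1% and 2.40% over all genes (median -0.38). The 3 higher ones were all genes of the Oas1 family. Rsad2, which encodes the antiviral enzyme viperin, had 2349, 1743 and 2490 counts without Dox and 5605, 2898 and 516 with Dox, at Rh2 0, 20 and 30 mg/kg (-2.14), and Ifi27l2a had 1775 and 387 counts in the pair (-2.07). Oas1a and Oas1g, which encode 2'-5' oligoadenylate synthetases, had 0 counts in each Dox-free library. At Rh2 0, 20 and 30 mg/kg with Dox, Oas1a had 850, 732 and 447 counts and Oas1g had 382, 375 and 234. The ratios in this pair were at least 163-fold and 85.1-fold higher. These genes are near-identical neighbours on chromosome 5, so reads may be assigned among them either way. Among the 30 genes that interferon gamma induces the median was -0.08, beside 1.06 between Dox and Control, and the GTPase Gbp4 had 106283 counts in Dox but 18446 to 31011 in the other 5 libraries.

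Genes that respond within minutes of handling or stress differed in part. The 23 immediate early genes that passed had medians of -0.41 here, -0.25 at Rh2 20 mg/kg and -0.62 without Rh2. The transcription factor Egr2 went from 286 to 30 counts (-3.11) and Atf3 from 443 to 91 (-2.15), while the phosphatase Dusp1 was lower by a like ratio in each pair (-0.75 here, -0.90 and -0.74 elsewhere). The heat shock gene Hspa1a had 8628, 2203 and 8509 counts without Dox and 8449, 4896 and 2051 with Dox at Rh2 0, 20 and 30 mg/kg, and so varied as much among Dox-free libraries as within the pair (-1.93). The median of 19 clock genes was 0.11. Of 20 targets of the glucocorticoid receptor and metallothioneins, 4 were at least 2-fold higher and 2 at least 2-fold lower (median 0.08). The shares over all genes were 2.40% and 12.1%. The higher ones included Zbtb16 (19139 to 38215 counts, 1.12) and the kinase Map3k6 (4515 to 10124 counts, 1.29), and Rh2-30 mg/kg + Dox was the highest of the 6 libraries for both.

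**Figure D4:**
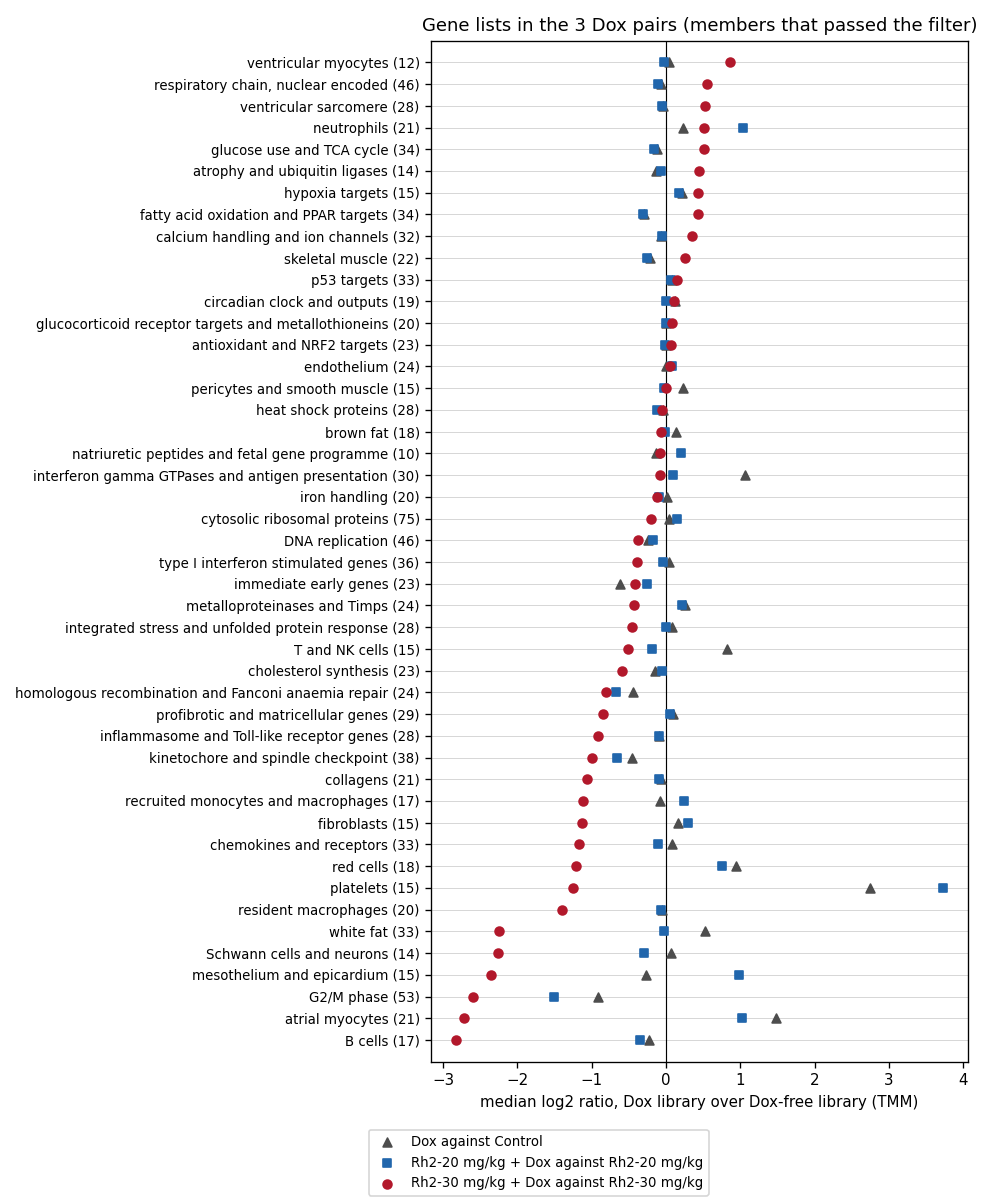
Median log2 ratio (Dox library over Dox-free library) of each gene list with at least 10 members that passed the filter, for the 3 pairs; the number of members is in parentheses. The G2/M list was below 0 in all 3 pairs (-2.60, -1.50 and -0.92), while platelet, red cell and atrial genes were below 0 at Rh2 30 mg/kg and above 0 in both other pairs.

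Some of the genes with high ratios were in none of the groups above. Mid1, a ubiquitin ligase of microtubules on the X chromosome, had 1187 to 1797 counts in 5 libraries and 15431 in Rh2-30 mg/kg + Dox (3.42, interval 3.35 to 3.50). The pseudogene Mid1-ps1 shares its sequence, so reads of the pair are uncertain between them. Pkdrej, a gene otherwise known from sperm, had 675 to 872 counts in 5 libraries and 4369 in Rh2-30 mg/kg + Dox (2.65). For Mid1 and Pkdrej it was the Dox library of the pair that stood out, and for Trim17, a ubiquitin ligase, it was Rh2-30 mg/kg, with 12 counts against 539 to 693 in the other 5 (5.73). Sap25, which encodes a partner of the Sin3 corepressor, varied throughout, with 8 to 226 counts (4.86). Ptgds, a prostaglandin D synthase, went from 6711 to 24694 counts (2.01) and was higher with Dox in each pair, as was the peptidase Lvrn (666 to 3584 counts, 2.55). The transcription factor Irx1 went from 105 to 518 counts (2.42).

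A set of zinc finger genes on chromosome 4, between 145670697 and 147642508 (GRCm38.p6), had an on-off pattern that did not follow treatment. Zfp979 had 1010 counts in Rh2-30 mg/kg + Dox, 847 in Dox without Rh2, and 5 to 18 in the other 4 libraries, including Rh2-20 mg/kg + Dox. Zfp600 (111 and 131 counts) and Zfp980 (110 and 120 counts) were at 0 in all libraries except Dox and Rh2-30 mg/kg + Dox. Zfp978 (141 and 186 counts, 4 to 18 elsewhere) and Rex2 (127 and 141 counts, 1 to 10 elsewhere) had the same pattern. These genes are members of 1 repeated family whose copies resemble each other closely, so the assignment of reads among them is uncertain.

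Only the Rh2 doses repeat the Dox comparison, so the Dox effect was tested over the 3 pairs with the Rh2 dose as a term (edgeR's quasi-likelihood test, two-sided, Benjamini-Hochberg adjustment, 2 residual degrees of freedom). None of the 18328 genes reached an adjusted p of 0.05, and 1598 had an unadjusted p below 0.05. DESeq2's Wald test in the same design called 311 genes, 208 of them lower with Dox. Without the Rh2-30 mg/kg pair the edgeR test called 487 genes, and without either other pair it called 0.

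Whether the Dox effect at Rh2 30 mg/kg differed from that at the other doses was tested by the interaction term in edgeR, which takes the other 2 pairs as replicates of each other and has 1 residual degree of freedom. At an adjusted p under 0.05 it called 733 genes with a higher Dox effect at Rh2 30 mg/kg (4.0%) and 1285 with a lower one (7.01%). DESeq2 called 1541, but without the filter on low counts edgeR called 5, so the calls rest on that filter. By this test all 15 platelet genes and 13 of 18 red cell genes had a lower Dox effect at Rh2 30 mg/kg, as had 17 of 21 atrial, 22 of 33 white fat, 15 of 21 collagen, 12 of 15 fibroblast and 16 of 20 resident macrophage genes. A higher Dox effect was called for 24 of 28 sarcomere, 36 of 46 respiratory chain and 30 of 34 glucose and TCA cycle genes. Of the 53 G2/M genes 14 were called lower, of the 36 type I interferon genes 4, and of the 33 p53 targets 2, and the remaining genes of these 3 lists were not called either way. Atrial and fat genes differed between the libraries in the same test, and their part in the other calls was not tested.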

How the data were processed

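Heart RNA of 6 conditions was captured with SureSelect XT probes and sequenced, 1 library of 5 pooled hearts each. The authors trimmed reads with Trimmomatic, aligned them to mm10 with HISAT2 2.1.0 and quantified genes with StringTie 2.1.3b (bcl2fastq 2.20.0). The deposited table holds read counts for each gene, which were used here. The FPKM values deposited by the authors served as an alternative, and the TPM values deposited by the authors were not used. Capture by probes can weight genes unequally.

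Counts were scaled by TMM (edgeR 4.0.16, R 4.3.3), and genes with a mean below 10 counts were left out. Within the pair, ratios are descriptive, with exact conditional binomial intervals (scipy 1.17.1) that give the precision allowed by 86164411 to 90621002 counts a library. Tests over the 3 pairs used edgeR's quasi-likelihood fit, with DESeq2 1.42.0 as the alternative. The authors' methods treat the 6 libraries as biological replicates, but each is of another condition. The p-values here therefore rest only on how the Dox ratio varied between the pairs, with any tissue differences between libraries included. For the interaction term, only the other 2 pairs give that spread. Further alternatives were other scaling, filters, FPKM with a pseudocount, and leaving out each pair. The statistics were also run on simulated counts. Those counts held no tissue differences between libraries, so they cannot show how the tests behave where such differences are present.

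Genes named are those with the highest and lowest ratios, those with 3 counts or fewer in 1 library and the most in the other, in each of 53 lists the most abundant members and those with the highest and lowest ratios, defining tissue markers, and Cdkn1a, Cdkn2a, Toll-like receptor, cytokine, Mmp and Timp genes. From these, 105 were described. Hba-a2 and Mid1-ps1 are named only as copies. The genes and lists were chosen with earlier results of these data known. Promoters are from RefSeq (GRCm38.p6), and 18297 of the genes compared matched RefSeq by gene ID. A gene that the rule names is not reported here.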

Additional observations from a re-analysis of the deposited data

Results flagged for a closer look

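The Dox effect at Rh2 30 mg/kg differed from that at the other Rh2 doses for 2018 genes (edgeR's quasi-likelihood interaction test, adjusted p under 0.05, 1 residual degree of freedom). Of the 105 genes described, 79 were among them, 56 with a lower and 23 with a higher effect at Rh2 30 mg/kg. Over all genes, 2018 of 18328 were called. Many of the genes described were named for a high or low ratio in this pair, and the interaction term tests the same ratio. That choice favours a high share of called genes, so the 79 of 105 are a description only. The values that follow are differences in log2 Dox effect, Rh2 30 mg/kg minus the other doses, and those of genes with 0 counts in a library depend on the count added. For atrial genes the differences were Myl7 (-16.03), Sln (-21.43), Myl4 (-11.88), Mybphl (-12.56), Nppa (-5.25), Bmp10 (-17.15), Dkk3 (-6.60), Pam (-1.65). For genes of fat, liver, lung and mesothelium the differences were Adipoq (-10.20), Cfd (-10.79), Car3 (-11.63), Plin1 (-11.16), Retn (-14.07), Fasn (-5.37), Scd1 (-5.86), Ucp1 (-9.35), Slc27a2 (-11.52), Cyp2e1 (-9.54), Pck1 (-9.42), Scgb1a1 (-6.48), Msln (-3.10). For genes of the cell cycle and DNA repair the differences were Mki67 (-2.52), Top2a (-3.03), Kif2c (-8.15), Bub1b (-2.94), Brca1 (-1.64), E2f2 (-4.21). For matrix and fibroblast genes the differences were Col3a1 (-2.21), Col1a1 (-1.82), Fn1 (-2.07), Postn (-2.03), Dcn (-0.82), Timp1 (-2.10). For immune genes the differences were Mrc1 (-0.56), Vsig4 (-5.28), Cxcl13 (-8.31), Fcrls (-2.09), Ighm (-1.71), Tlr2 (-1.91), Casp1 (-1.02), Rsad2 (-3.12), Ifi27l2a (-2.57). For platelet, vessel and red cell genes the differences were Ppbp (-4.94), Tubb1 (-5.91), Gp1ba (-5.50), Vwf (-2.07), Hba-a1 (-2.21). Lower effects of other genes were those of Hamp (-11.21), Adamts8 (-7.75), Tgm3 (-8.30), Ces1f (-14.60), Fbxw24 (-14.99), Angptl4 (-1.62), Hspa1a (-2.46), Egr2 (-2.24), Atf3 (-1.71). Higher effects in genes of muscle and metabolism were those of Lpl (0.71), Cox8b (0.74), Acta1 (0.78), Myl2 (0.77), Myl3 (1.16), Myh6 (0.52), Tnnt2 (0.65), Irx4 (1.10), Ttn (0.48), Mybpc3 (0.97), Atp5a1 (0.79), Idh2 (0.96), Acadm (0.90), Ucp3 (0.71), Gapdh (0.61), and in other genes those of Timp4 (1.32), Trim17 (5.74), Sap25 (5.60), Mid1 (3.68), Pkdrej (2.75), Irx1 (2.35), Ptgds (1.40), Zbtb16 (0.90). With 1 library for each condition no library could be set against replicates of its own group.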

How the results depend on the processing

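Of the counts of genes at least 2-fold higher (440) and lower (2216), those under DESeq2 size factors, with more than 3 counts in both libraries and with a counting interval that leaves out a ratio of 1 were within 1.5 times. The others were 41 higher and 561 lower with FPKM plus 1, 175 higher with FPKM plus 0.1, 1999 and 4898 without a filter on low counts, 137 and 1019 with a mean of at least 100 counts, and 126 and 845 past 4-fold. With Rh2-30 mg/kg within 1.5-fold of Control and Rh2-20 mg/kg, chosen after seeing the data, they were 105 and 477. The cause of these changes was not tested beyond the number of genes compared.

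The test of Dox over the 3 doses called 0 genes, 311 by DESeq2, 5 with no term for Rh2 dose, and 487 without the pair at Rh2 30 mg/kg. The test of an unlike effect at Rh2 30 mg/kg called 2018, and 5 without the filter on low counts. FPKM plus 0.1 shifted the median of all genes by -0.13.

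Of 26 lists with a median past 0.5 in size, 25 kept their sign with a mean of at least 100 counts, where T and NK cells had 2.43 from 1 gene, and 20 within 1.5-fold of Control and Rh2-20 mg/kg. There the medians were -0.76 for neutrophils (3 genes), 0.070 for platelets (1), 0.23 for atrial myocytes (3), 0.12 for white fat (7), 0.73 for lung (1) and 0.024 for Schwann cells and neurons (1). Under the other alternatives run for lists all 26 kept their sign, but sizes differed: with FPKM plus 1, 40 of 53 list medians moved, that of the G2/M phase to -0.74 with 13 genes at least 2-fold lower in place of 50, with 5 in place of 19 for the kinetochore and 0 in place of 10 for recombination. Of 81 described genes past 2-fold, 61 stayed so under every alternative. The test over the 3 doses pairs the libraries by Rh2 dose, and a block by replicate was not fitted, as each condition had 1 library. Genes of low counts limit the precision, and 319 genes had 3 counts or fewer in Rh2-30 mg/kg + Dox.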
